A study of Mus musculus with 8 samples.

Results

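Foxd3, Otx2, Fgf5, Pou3f1, Sox3 and Zic2 are genes of the formative and primed states of mouse pluripotency. They were taken by symbol from the gene table, and all 6 were present among its 54838 genes and had enough counts to be tested. RNA was sequenced from mouse iPSCs, somatic cells reprogrammed to pluripotency, which the sample labels call ESC. Per the labels' protocols, 2 independently derived male clones were the biological replicates, grown with serum, LIF and the MEK and GSK3 inhibitors of 2i on an irradiated feeder layer. Asynchronous cells (labelled Asynchronous) came from the cycling population. Mitotic cells (labelled Mitotic) had been passaged to gelatin, kept for 6 h in nocodazole at 200 ng/ml and shaken off, and cells labelled EG1 and LG1 (early and late G1) were taken 1 h and 3 h after the drug was washed out. Each state had n = 2 libraries, and the fit pooled the spread between the 2 libraries of a state over all 4 states, so a library of any state bears on every p-value.

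Naive pluripotent cells, the counterpart of the preimplantation epiblast, pass through a formative state before they become primed for the germ layers, and FGF signalling through ERK drives that passage. Otx2 encodes a homeodomain factor that directs Pou5f1 protein to new enhancers in the passage, Foxd3 a forkhead factor that helps to shut naive enhancers, and Pou3f1 (Oct6) a POU factor of the postimplantation epiblast and neural ectoderm. Sox3 is a SoxB1 factor close to Sox2, Zic2 a zinc finger factor, and Fgf5 a secreted ligand that marks the postimplantation epiblast. The MEK inhibitor in the medium blocks the ERK branch and holds cells in the naive state.

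The members differed in where they were highest. Foxd3 was 4.11-fold higher at 1 h after release than in mitotic cells, and it was the 1 member called in that hour. Otx2 and Fgf5 were highest in asynchronous cells and were 3.06- and 3.28-fold lower in mitotic cells. Zic2 was 1.69-fold higher in early G1 than in asynchronous cells, and Pou3f1 and Sox3 were called in no comparison. A difference was called where the adjusted p of edgeR's quasi-likelihood test, by Benjamini-Hochberg over all 19101 genes tested, was under 0.05. Levels are in CPM, counts scaled to the size of each library after TMM normalisation, as mean ± SD of n = 2 libraries unless single libraries are given. In bulk RNA, fewer cells that express a gene and less of its RNA in each cell cannot be told apart.

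Promoter windows of RefSeq (GRCm38.p6) covered 3 of the 6 members, Foxd3, Otx2 and Fgf5, and are shown as the upstream sequence of the genes with the changes described above: the 250 bases before the transcript start, 5′ to 3′ on the gene's strand. Capitals mark motif matches, and where motifs overlap their capitals run together. The Foxd3 window lies at chr4:99656049-99656298 (plus strand), the window of the most upstream of 4 RefSeq starts of Otx2 at chr14:48667645-48667894 (minus strand) and that of Fgf5 at chr5:98253934-98254183 (plus strand).
Foxd3: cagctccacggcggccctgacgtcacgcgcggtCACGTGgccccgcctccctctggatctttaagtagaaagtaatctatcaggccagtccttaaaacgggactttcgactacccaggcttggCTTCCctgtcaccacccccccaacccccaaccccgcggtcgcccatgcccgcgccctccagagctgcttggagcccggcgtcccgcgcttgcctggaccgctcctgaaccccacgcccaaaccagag
Otx2: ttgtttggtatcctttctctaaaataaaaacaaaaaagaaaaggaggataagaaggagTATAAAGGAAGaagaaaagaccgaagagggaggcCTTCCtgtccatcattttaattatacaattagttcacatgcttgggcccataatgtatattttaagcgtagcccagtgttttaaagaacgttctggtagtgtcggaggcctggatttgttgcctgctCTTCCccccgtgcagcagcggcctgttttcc
Fgf5: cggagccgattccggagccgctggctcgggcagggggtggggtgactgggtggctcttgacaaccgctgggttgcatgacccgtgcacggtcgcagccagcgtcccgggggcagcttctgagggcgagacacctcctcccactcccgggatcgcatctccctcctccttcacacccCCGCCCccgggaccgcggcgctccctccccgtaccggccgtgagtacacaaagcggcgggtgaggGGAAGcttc
Both strands were searched for TATAAA (the TATA box of core promoters), for the CCAAT box, spelled by its name, and for GGGCGG, the GC box bound by Sp factors. The other motifs were TTTGAA, the CHR element of cell cycle genes, CACGTG, the E-box, CTTTGA, the core bound by TCF and LEF factors, and GGAAG, the core bound by ETS factors. The Foxd3 window held 1 E-box that begins 217 bases before the start, a motif in 6.02% of the 32851 windows, and 1 ETS core. The Otx2 window held a match to the letters TATAAA 192 bases before the start (in 12.4% of windows), a match of letters only. It also held 3 ETS cores (in 64.1%), 1 of which runs directly on from the TATAAA match. The Fgf5 window held 1 GC box (in 32.7%) and 1 ETS core. None of the 3 windows shown held a CCAAT box (in 33.8%), a CHR element (in 15.99%) or a TCF/LEF core (in 13.8%), which says only that these letters are not in them. GC content was 65.6% in the Foxd3 window and 70.8% in that of Fgf5, against a median of 52.4% over all windows, and 42.0% in the Otx2 window. The windows of the other Otx2 starts, not shown, held no TATAAA match and had GC contents of 49.2%, 48.4% and 53.6%. That of the second start held a CCAAT box 70 bases before it, so the description of Otx2 covers the most upstream of its 4 RefSeq starts alone. The window shown lies inside the Otx2 gene model of GENCODE (48657677 to 48673819, minus strand). It is thus upstream of that RefSeq start but not of the whole gene.

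The 8 libraries held 20410621 to 25615244 counts each, so that 3 counts correspond to 0.116 to 0.152 CPM. Pluripotency markers were present in every library (10 of 10 above 0 counts, Pou5f1 at 1472 to 2121 CPM). The 20 feeder fibroblast markers summed to 2465 and 2643 CPM in asynchronous cells, 1131 and 1042 CPM in mitotic cells and 951 to 976 CPM in G1. Sparc alone averaged 720 to 898 CPM in every state, Lum and Dcn had 0 counts in mitotic replicate 1, and the collagen gene Col1a1 stood at 532 CPM in asynchronous cells and 8.87 CPM in mitotic cells. From asynchronous to mitotic cells 17 of the 19 feeder markers tested fell and 0 rose. Of 7 macrophage markers tested, 4 rose in that comparison, and 6 fell from mitotic cells to early G1. Summed neural progenitor markers were at 124 to 135 CPM in asynchronous, 96.4 to 120 CPM in mitotic and 82.4 to 86.7 CPM in G1 cells, with 0 to 3 of 11 at 0 counts. Nes made up most of that sum (121 CPM in asynchronous and 66.3 CPM in late G1 cells), whereas of the 6 neural markers tested 4 were higher and 1 lower in late G1 than in asynchronous cells (median log2 1.20), and 2 higher and 1 lower in early G1 (median 0.91). Summed primitive streak and mesoderm markers were at 9.20 to 14.5 CPM in asynchronous and mitotic libraries and 18.0 to 23.8 CPM in G1 libraries. Asynchronous replicates differed by more than 2-fold in 774 of the 12037 genes whose mean log2 CPM reached 2, mitotic replicates in 194, and early and late G1 replicates in 7 and 8. Asynchronous cells also differ from the other states in substrate and drug exposure, which cannot be told apart here from the state of the cell cycle.

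Foxd3 (ENSMUSG00000067261, a single-exon gene on chromosome 4, 99656299 to 99658622, plus strand, GRCm38) had 8.08 and 10.4 CPM in replicates 1 and 2 of the asynchronous cells, 7.29 and 6.78 CPM in mitotic cells, 29.8 and 27.97 CPM in early G1 and 18.6 and 15.9 CPM in late G1. The 4 G1 libraries were all above the 4 others, and both early G1 libraries were above both late G1 libraries. From mitotic cells to early G1 the level went from 7.03 ± 0.362 to 28.9 ± 1.33 CPM (log2 2.04, SE 0.18, adjusted p = 0.00242). In this comparison 4.63% of all tested genes were called, and 3.21% were called higher. Foxd3 was also higher in early G1 than in asynchronous cells (log2 1.65, SE 0.18, adjusted p = 4.16e-04), where 46.0% of genes were called. These 2 results and the one below for late G1 against asynchronous cells remained called under each of 19 alternative settings, with adjusted p of at most 0.0443.

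At 3 h the Foxd3 level was 17.3 ± 1.91 CPM, 2.45-fold that of mitotic cells (log2 1.29, SE 0.18, adjusted p = 0.00713, with 9.48% of genes called) and 1.87-fold that of asynchronous cells (adjusted p = 0.00420, with 48.7% called). The call against mitotic cells was lost without mitotic replicate 1 (adjusted p = 0.0594), mitotic replicate 2 (0.0513), late G1 replicate 1 (0.0935) or late G1 replicate 2 (0.0576), at log2 changes of 1.18 to 1.403. Late against early G1 gave a log2 difference of -0.74 (95% interval -1.14 to -0.35) with an unadjusted p = 0.00244 and an adjusted p = 0.915. No gene was called in that comparison (0% of 19101 by edgeR, with 724 at an unadjusted p under 0.05, and 27 called by DESeq2). The fit of only the 2 G1 states, whose replicates lay close together, called Foxd3 lower in late G1 (log2 -0.74, adjusted p = 1.29e-06), among 1493 genes called. In the order of levels (mitotic, asynchronous, late G1, early G1) late and early G1 were thus not called apart, nor were mitotic and asynchronous cells (log2 -0.39, 95% interval -0.81 to 0.027, adjusted p = 0.119), although without asynchronous replicate 1 the difference was called (log2 -0.56, adjusted p = 0.0195).

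**Figure D1:**
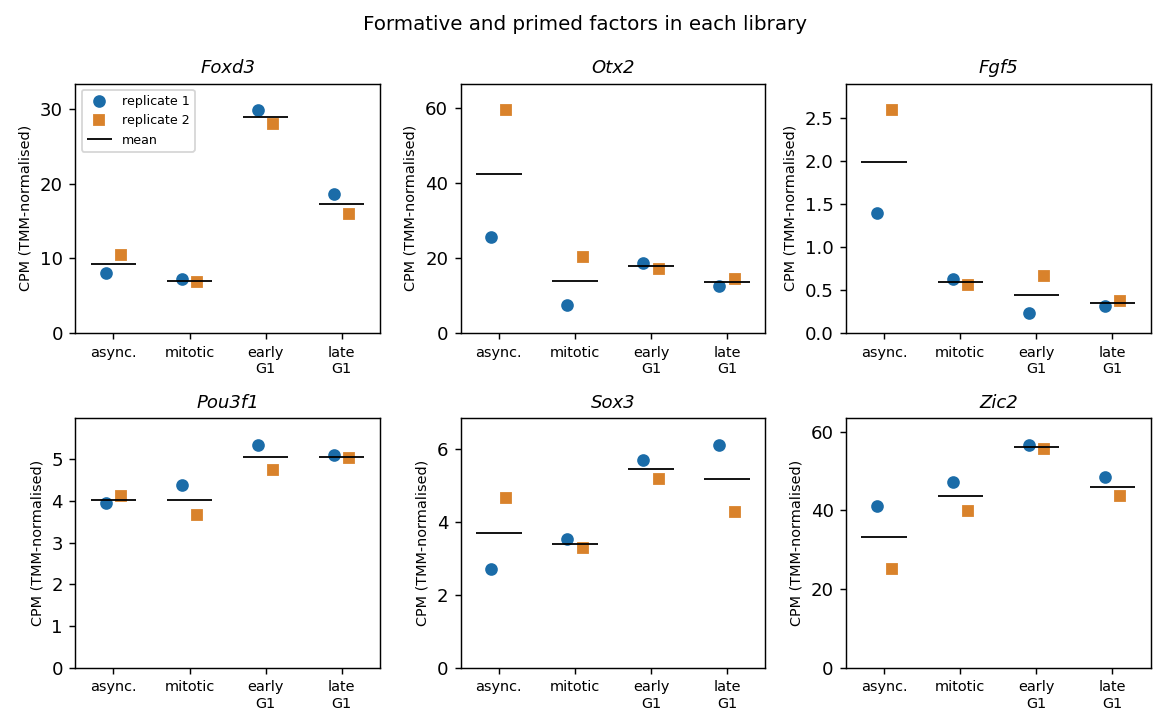
Level of each member (CPM, TMM-normalised, linear axis from 0, a separate axis per gene) in the 2 libraries of each state, with the mean as a line. Foxd3 peaked in early G1 at 29.8 and 27.97 CPM, Otx2 and Fgf5 were highest in asynchronous cells, and Pou3f1 and Sox3 stayed between 2.71 and 6.11 CPM in every library.

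Otx2 (ENSMUSG00000021848, chromosome 14, 48657677 to 48673819, minus strand, 6 exons in its longest transcript) had 25.5 and 59.4 CPM in replicates 1 and 2 of the asynchronous cells and 7.37 and 20.3 CPM in those of the mitotic cells. It stood at 18.7 and 17.0 CPM in early G1 and at 12.6 and 14.5 CPM in late G1. Both asynchronous libraries were above all 6 others. Replicate 2 exceeded replicate 1 by 2.33-fold in asynchronous and 2.76-fold in mitotic cells, while the G1 replicates were within 1.16-fold of each other. Only 0.523% of 12037 genes differed more between the mitotic replicates, and 3.10% between the asynchronous ones.

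The Otx2 level fell by 1.61 on the log2 scale from asynchronous to mitotic cells (SE 0.49, adjusted p = 0.0299). In that comparison 40.7% of genes were called and 22.4% called lower. Replicate 2 was the higher in both states, so the Otx2 log2 change moved when 1 library of either was left out. With both replicate 1 libraries of asynchronous and mitotic cells left out, the Otx2 log2 change was -1.54. The call was kept with a replicate block (log2 -1.63, adjusted p = 0.00838). It was also kept with a term for replicate 1 of the asynchronous and mitotic states (log2 -1.66, adjusted p = 4.03e-06). That call was lost without asynchronous replicate 2 (log2 -0.88, adjusted p = 0.261), without mitotic replicate 1 (log2 -1.05, adjusted p = 0.141), without any single G1 library (adjusted p from 0.0501 without early G1 replicate 2 to 0.0534 without late G1 replicate 2), and in the fit of only these 2 states (adjusted p = 0.0828). Late G1 was also lower than asynchronous cells (log2 -1.64, SE 0.49, adjusted p = 0.0241), a call lost without asynchronous replicate 2 (log2 -0.91, adjusted p = 0.237), late G1 replicate 1 (0.129) or late G1 replicate 2 (0.0978). Early G1 missed the threshold against asynchronous cells (log2 -1.25, adjusted p = 0.0633) and passed it in 8 of 19 alternative settings. Among these were DESeq2 (adjusted p = 0.0127), no filter on low counts (1.04e-07) and a replicate block (0.0334). The fits without asynchronous replicate 1 (log2 -1.73) and without mitotic replicate 1 or 2 were also among them. Without asynchronous replicate 2 the early G1 difference was -0.52.

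Neither G1 state was called different from mitotic cells in Otx2, and late and early G1 were not called apart. The early G1 difference from mitotic cells was 0.36 on the log2 scale (95% interval -0.75 to 1.47, adjusted p = 0.698), and without mitotic replicate 1 it was -0.19. A term for replicate 1 of the asynchronous and mitotic states gave a call of lower Otx2 in late G1 than in mitotic cells (log2 -0.53, adjusted p = 0.0181), against a log2 difference of -0.030 without it. With the 2 G1 states fitted alone, Otx2 was called lower in late than in early G1 (log2 -0.39, adjusted p = 0.0159), against an adjusted p of 1.00 in the fit of all 4 states. The feeder markers were higher in the same asynchronous libraries as Otx2, and the part of feeder RNA in its level was not tested. Without the 673 tested genes of the feeder list or at least 4-fold higher in asynchronous cells than in each other state, the mitotic difference was -1.64 (adjusted p = 0.0332). Removing other genes changes the scaling and the shared spread but leaves the counts of Otx2 as they were. That fit therefore cannot decide the part of feeder RNA.

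Fgf5 (ENSMUSG00000029337, chromosome 5, 98254184 to 98277030, plus strand, 3 exons) was the scarcest member. It had 35 and 51 counts in the asynchronous libraries, 15 and 13 in the mitotic ones, 5 and 17 at 1 h and 7 and 8 at 3 h. In CPM these are 1.39 and 2.59, 0.632 and 0.561, 0.236 and 0.657, and 0.319 and 0.375. Both asynchronous libraries were above the 6 others, and the low counts limit every comparison among those 6.

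Fgf5 fell by 1.72 on the log2 scale from asynchronous to mitotic cells (SE 0.49, adjusted p = 0.0245). It was lower than in asynchronous cells in early G1 (log2 -2.09, SE 0.51, adjusted p = 0.0112) and in late G1 (log2 -2.49, SE 0.53, adjusted p = 0.00616), where 24.7% and 26.0% of genes were called lower. The mitotic call was lost without asynchronous replicate 2 (log2 -1.22, adjusted p = 0.0816), mitotic replicate 1 (0.0979) or mitotic replicate 2 (0.112). The early G1 call was lost without early G1 replicate 1 (log2 -1.57, adjusted p = 0.0749) and in the fit of those 2 states (0.0524), and the late G1 call without late G1 replicate 1 (0.0541). Between mitotic cells and G1 no difference was called (adjusted p = 0.729 at 1 h and 0.438 at 3 h), with a 95% interval of -1.65 to 0.90 at 1 h. As for Otx2, the feeder markers were higher in the same libraries, and their part was not tested.

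Zic2 (ENSMUSG00000061524, chromosome 14, 122475435 to 122479852, plus strand, 3 exons) had the most counts of the members in mitotic and G1 cells. It had 41.1 and 25.1 CPM in replicates 1 and 2 of the asynchronous cells, 47.2 and 39.9 CPM in mitotic cells, 56.6 and 55.7 CPM in early G1 and 48.5 and 43.6 CPM in late G1. Both early G1 libraries were above all others, whereas asynchronous replicate 1 overlapped the mitotic libraries. Here replicate 1 of the asynchronous cells was the higher, 1.64-fold, the opposite of Otx2.

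Zic2 was higher in early G1 than in asynchronous cells (log2 0.76, SE 0.22, adjusted p = 0.0230, with 21.3% of genes called higher). The call was lost without early G1 replicate 1 (adjusted p = 0.0949) or 2 (0.0941) and in the fit of those 2 states alone (0.0800). The other Zic2 differences were not called: 0.39 for mitotic against asynchronous cells (adjusted p = 0.185), 0.37 for early G1 against mitotic (0.355), 0.47 for late G1 against asynchronous (0.108) and -0.29 for late against early G1 (1.00). Without asynchronous replicate 1, the mitotic and late G1 differences from asynchronous cells were called (log2 0.80 and 0.88, adjusted p = 0.00122 and 5.53e-04). Early G1 against mitotic cells was called without asynchronous replicate 1 (0.0398) or 2 (0.0345), at nearly the same log2 change. The fit of the 2 G1 states alone called Zic2 lower in late G1 (log2 -0.28, adjusted p = 0.00857). With a term for replicate 1 of the asynchronous and mitotic states, Zic2 was called higher in mitotic than in asynchronous cells (log2 0.43, adjusted p = 0.0139). The same term called Zic2 higher in early G1 than in mitotic cells (log2 0.60, adjusted p = 0.00959).

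Pou3f1 (ENSMUSG00000090125, a single-exon gene on chromosome 4, 124656807 to 124660655, plus strand) stood at 3.94 and 4.11 CPM in asynchronous cells, 4.38 and 3.67 CPM in mitotic cells, 5.34 and 4.75 CPM in early G1 and 5.11 and 5.02 CPM in late G1. The 4 G1 libraries were above the 4 others, but by little: early G1 exceeded mitotic cells by 0.32 on the log2 scale (95% interval -0.14 to 0.79, adjusted p = 0.378). Mitotic and asynchronous means were 4.03 ± 0.504 and 4.02 ± 0.117 CPM. No alternative setting called Pou3f1 in any comparison.

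Sox3 (ENSMUSG00000045179, a single-exon gene on chromosome X, 60891366 to 60893430, minus strand) stood at 2.71 and 4.66 CPM in asynchronous cells, 3.54 and 3.28 CPM in mitotic cells, 5.71 and 5.18 CPM in early G1 and 6.11 and 4.27 CPM in late G1. Both early G1 libraries were above the asynchronous and mitotic ones, and late G1 replicate 2 overlapped the asynchronous cells. The early G1 difference from mitotic cells was 0.67 (95% interval -0.015 to 1.36, adjusted p = 0.228). Without asynchronous replicate 2, both G1 states were called higher than asynchronous cells (log2 1.00 and 0.94, adjusted p = 0.0173 and 0.0226), and the mitotic difference from asynchronous cells changed from -0.10 to 0.33, not called. With replicate 1 of both asynchronous and mitotic cells left out, Sox3 was called higher than in mitotic cells in early G1 (log2 0.72, adjusted p = 0.0103) and late G1 (log2 0.66, adjusted p = 0.0193).

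**Figure D2:**
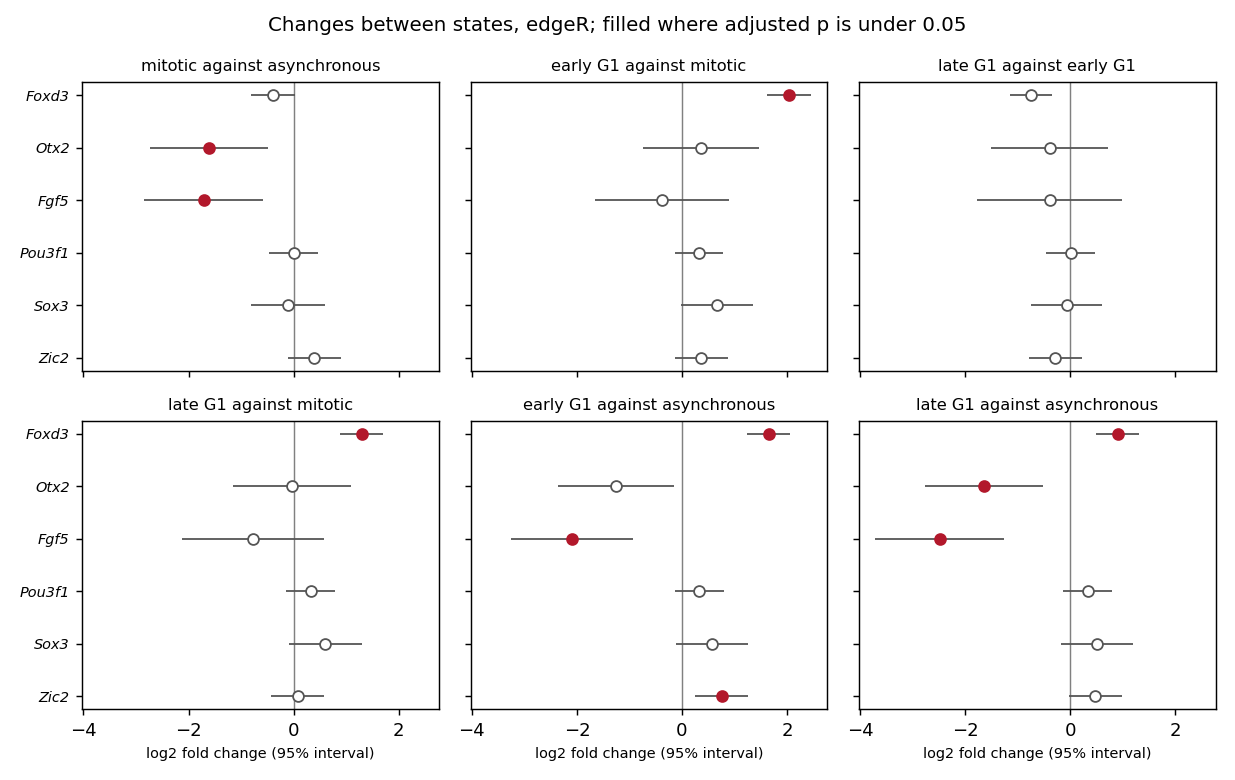
Log2 fold change of each member in the 6 comparisons, with 95% intervals from the edgeR fit of all 8 libraries. Filled points passed an adjusted p of 0.05: Otx2 and Fgf5 (mitotic against asynchronous), Foxd3 (early and late G1 against mitotic), Foxd3, Fgf5 and Zic2 (early G1 against asynchronous) and Foxd3, Otx2 and Fgf5 (late G1 against asynchronous).

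As a group the members moved in both directions. From asynchronous to mitotic cells 0 of 6 were called higher and 2 lower, beside 18.3% and 22.4% of all genes, with a median log2 change of -0.25 beside -0.049 over all genes. From mitotic cells to early G1, 1 of 6 was called higher and 0 lower, beside 3.21% and 1.42% of all genes (median 0.37 beside -0.011). Late G1 against mitotic cells likewise gave 1 higher and 0 lower, beside 5.43% and 4.04%, and late against early G1 gave 0 of 6, beside 0% (median -0.34 beside -0.00051). Against asynchronous cells, 2 were higher and 1 lower in early G1 (beside 21.3% and 24.7%), and 1 higher and 2 lower in late G1 (beside 22.7% and 26.0%). In the 3 comparisons with asynchronous cells the share of members called was near that of all genes (40.7%, 46.0% and 48.7%), so these counts say nothing particular of the members. The comparisons share libraries (asynchronous cells enter 3 of the 6) and are not independent of each other.

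**Figure D3:**
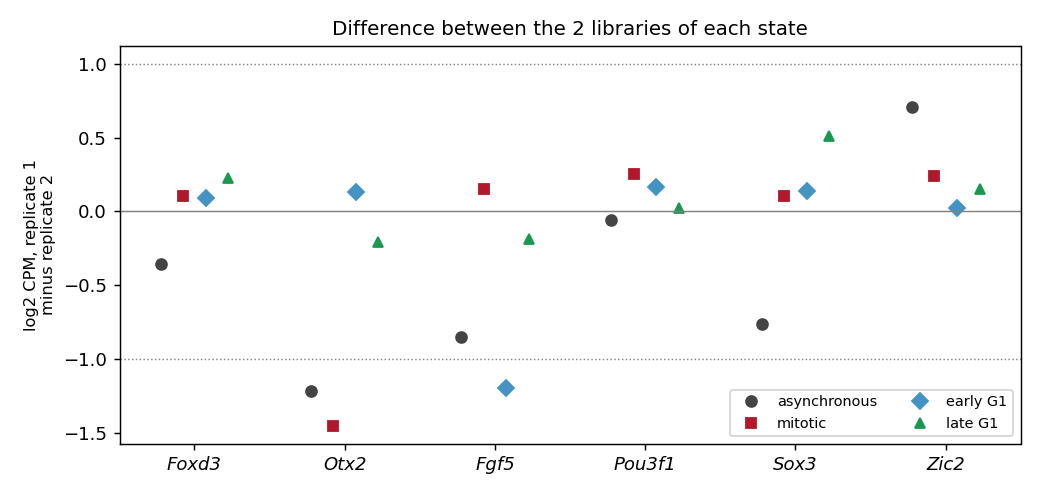
Log2 CPM of replicate 1 minus replicate 2 for each member in each state, with dotted lines at a 2-fold difference. Otx2 lay beyond 2-fold in asynchronous and mitotic cells (-1.22 and -1.45) and Fgf5 in early G1 (from 5 and 17 counts), and all other points lay within the lines.

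Per kb of exon the order of the members changed with the state. Zic2 was the highest in mitotic cells, early G1 and late G1 at 15.1, 19.5 and 15.99 CPM per kb, and Fgf5 the lowest throughout, at 0.139 to 0.796 CPM per kb. In early G1 Foxd3 was next to Zic2 at 12.4 ± 0.572 CPM per kb, from 3.03 ± 0.156 in mitotic cells, where it lay beside Otx2 at 3.28 ± 2.17. In asynchronous cells Zic2 at 11.5 ± 3.92 and Otx2 at 10.1 ± 5.68 CPM per kb did not differ beyond their spread, and dividing by the longest transcript in place of all exons put Otx2 first (16.4 against 13.6). By that length Otx2 stood at 5.34, 6.88 and 5.23 CPM per kb in mitotic, early G1 and late G1 cells, against 3.28, 4.22 and 3.21 by all exons. Pou3f1 at 1.05 to 1.32 and Sox3 at 1.65 to 2.64 CPM per kb lay between these and Fgf5. All 6 were far below Sox2, the SoxB1 relative of Sox3, at 122 to 146 CPM per kb.

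Noncoding genes on the opposite strand lie beside or over several members, and 3 of them had enough counts to be tested. Since the strand setting of the counting is not given in the sources used here, reads of overlapping genes cannot be assigned with certainty. Gm12688 is a lincRNA gene that begins 1315 bases upstream of Foxd3 (chromosome 4, 99653607 to 99654983, minus strand). It stood at 10.1 and 11.6 CPM in asynchronous cells, 4.17 and 2.98 CPM in mitotic cells, 4.91 and 4.17 CPM in early G1 and 3.88 and 4.27 CPM in late G1. It was lower than in asynchronous cells in mitosis (log2 -1.60, adjusted p = 0.00142) and in early G1 (log2 -1.26, adjusted p = 0.00321), where Foxd3 was higher, and it was not called from mitosis to early G1 (log2 0.34, adjusted p = 0.416).

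Otx2os1 overlaps the 5′ part of the Otx2 gene on the other strand (chromosome 14, 48668708 to 48870683). It stood at 1.11 and 2.03 CPM in asynchronous cells and between 0.0469 and 0.389 CPM in the 6 other libraries, with log2 changes of -2.36 in mitotic cells (adjusted p = 0.0133) and -2.70 in early G1 (adjusted p = 0.00771), the direction of Otx2. The transcript 2610035F20Rik begins 235 bases upstream of Zic2 (chromosome 14, 122470284 to 122475199, minus strand). It stood at 1.35 and 1.22 CPM in asynchronous cells and 4.01 and 3.82 CPM in early G1 (log2 1.60, adjusted p = 0.0121), the direction of Zic2. At Pou3f1 and Sox3 the opposite-strand genes Gm2164 and Gm14662 had at most 1 and 3 counts in any library.

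**Figure D4:**
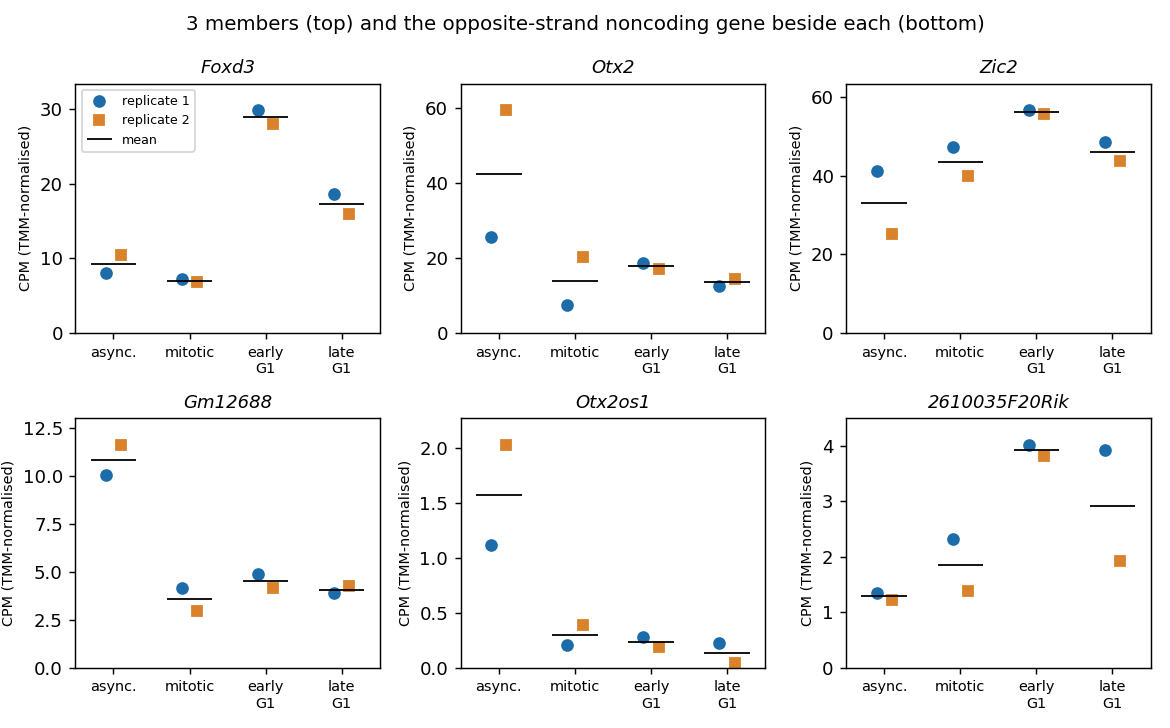
Levels (CPM, linear axis from 0) of Foxd3, Otx2 and Zic2 above the opposite-strand noncoding gene next to each, per library and state. Otx2os1 and 2610035F20Rik were high in the states where Otx2 and Zic2 were high, while Gm12688 was highest in asynchronous cells (10.1 and 11.6 CPM), where Foxd3 was at 8.08 and 10.4 CPM.

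Relatives of the members were measured from the same libraries. Zic5 stood at 23.0 ± 7.92, 24.1 ± 2.94, 33.3 ± 2.20 and 29.6 ± 0.296 CPM in asynchronous, mitotic, early and late G1 cells and was called in none of the 6 comparisons. Sox2 stood between 251 and 300 CPM in the mean of every state, and Sox1 between 3.20 and 5.48 CPM. Otx1 was lower in mitotic than in asynchronous cells (0.469 ± 0.00802 against 1.84 ± 1.196 CPM, adjusted p = 0.0290), as Otx2 was, and Pou3f2 was higher (1.69 ± 0.843 against 0.422 ± 0.0229 CPM, adjusted p = 0.00983). Pou3f3 and Foxd1 were not called in that comparison (0.672 and 1.20 CPM for Pou3f3, 0.445 and 0.835 CPM for Foxd1, in asynchronous and mitotic cells).

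Of 28 other formative and primed genes tested, 5 rose and 0 fell from mitotic cells to early G1, beside 3.21% and 1.42% of all genes (median 0.29 beside -0.011 over all genes). Nodal, the TGF-beta ligand that maintains the primed state, went from 59.4 ± 4.82 to 184 ± 5.70 CPM (adjusted p = 9.78e-04), and Spry4, an inhibitor of ERK signalling, from 7.92 ± 1.92 to 43.2 ± 1.87 CPM (adjusted p = 0.00428). The SoxC factors Sox4 (log2 1.64, adjusted p = 0.0289) and Sox11 (log2 0.75, adjusted p = 0.0474) were also among the 5. Late G1 against mitotic cells also gave 5 called higher and 0 lower (beside 5.43% and 4.04% of all genes), and early G1 against asynchronous cells 15 and 6 (beside 21.3% and 24.7%). Like Foxd3, Nodal and Spry4 were called in both G1 states against mitotic cells. From asynchronous to mitotic cells 11 of the 28 rose and 8 fell, or 39.3% and 28.6%, beside 18.3% and 22.4% of all genes. The risers included the DNA methyltransferase gene Dnmt3b (74.9 ± 8.55 to 282 ± 57.3 CPM), and the largest falls by p were those of the Wnt effector Lef1 (37.3 ± 1.32 to 6.37 ± 0.283 CPM) and the Nodal antagonist Lefty1 (162 ± 10.9 to 21.4 ± 8.39 CPM), the direction of Otx2 and Fgf5.

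Naive genes and the FGF and ERK pathway are set beside the members because they mark the state before and the signal for the passage. Of 16 naive genes, 0 rose and 1 fell from mitotic cells to early G1, beside 3.21% and 1.42% of all genes. The fall was that of Klf2 (233 to 125 CPM, log2 -0.90, adjusted p = 0.00995). From asynchronous to mitotic cells 9 rose and 3 fell (beside 18.3% and 22.4% of all genes), with Nr0b1 at 16.6 and 97.0 CPM. In the same comparison 7 of 10 markers of pluripotent stem cells rose and 0 fell (summed level 3638 and 4262 CPM in asynchronous, 6124 and 5908 CPM in mitotic libraries) while the feeder markers fell, and the part of the cell mixture in these counts was not tested. Of 22 FGF and ERK pathway genes, 12 rose and 5 fell from asynchronous to mitotic cells, beside 18.3% and 22.4% of all genes. The share that fell, 22.7%, was near that of all genes, and the part of the cell mixture was likewise not tested. The summed level of the 22 pathway genes was 722 and 689 CPM in asynchronous, 1131 and 1011 CPM in mitotic and 1174 and 1187 CPM in early G1 libraries. In the first hour after release 5 of the 22 rose and 0 fell, beside 3.21% and 1.42% of all genes. The 5 were Spry4, Spry2 (12.1 to 31.6 CPM), the phosphatase gene Dusp6 (9.62 to 31.0 CPM), Fos (4.69 to 9.83 CPM) and the receptor gene Fgfr3 (1.83 to 3.81 CPM). Spry4 is also in the list of other formative and primed genes, so it is counted in both lists. Late G1 against mitotic cells gave 3 naive genes lower (Klf2, Zfp42 and Esrrb) and 0 higher, and 5 pathway genes higher and 0 lower. Of all genes, 5.43% were called higher and 4.04% lower there.

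**Figure D5:**
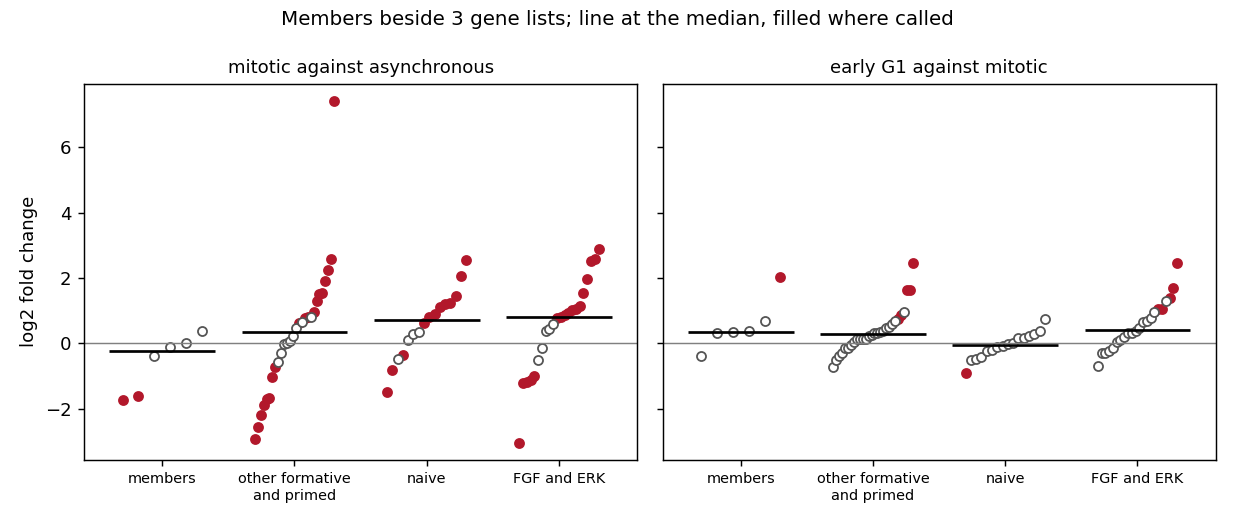
Log2 fold changes of the members and of 3 gene lists, mitotic against asynchronous cells (left) and early G1 against mitotic cells (right), sorted within each list, with the median as a line and called genes filled. Foxd3 is the 1 filled member on the right, and the highest point on the left is Wnt8a, which had 0 counts in both asynchronous libraries, so that its fitted size depends on the prior count.

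The genes whose log2 CPM was most like that of each member over the 8 libraries were sought among 10615 named genes (10616 for Fgf5) expressed at a mean log2 CPM of 2 or more. The correlations describe libraries that fall into 4 states. For Foxd3 they were Tbc1d10b (Pearson r = 0.991, rho = 1.00), Hnrnpdl (0.973) and Ubd (0.959), each with its highest mean in early G1 and its lowest in mitotic cells. For Otx2 they were Ikbkg (0.987), Angel1 (0.980) and Zdhhc9 (0.977), highest in asynchronous cells, and for Fgf5 Phkg1 (0.982), Zcchc24 (0.968) and Sema4f (0.968), also highest there. For Zic2 they were Smg8 (0.991), Pan2 (0.987) and Ptgfrn (0.984), highest in early G1. Pou3f1 was nearest to Pmel (0.966), Ei24 (0.949) and Mcm3 (0.944), and Sox3 to Fbxw9 (0.939), Ints1 (0.934) and Cpne5 (0.924). Ranking by Spearman correlation kept 1 of the 3 for Foxd3 and Fgf5, 2 for Sox3 and 0 for Otx2, Pou3f1 and Zic2.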

How the data were processed

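The table the authors deposited holds whole-number read counts, not normalised, for 54838 Ensembl genes in 8 libraries. Per the submitters' processing notes, TopHat2, SAMtools and HTSeq were used with the build mm10. Which annotation release was used, and whether counting used strand, is not given in the sources used here. Libraries were poly(A) selected, strand-marking and read as single ends, per the labels' protocols, whose text on RNA extraction names asynchronous cells alone. Gene IDs were matched to symbols and coordinates (1-based) with GENCODE M21 (GRCm38), which held 54809 of them (99.9%).

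The analysis ran in edgeR 4.0.16 under R 4.3.3: filterByExpr (minimum count 10), TMM scaling and the robust quasi-likelihood F test on all 8 libraries, with the 4 states as groups and no replicate block. Tests are two-sided and adjusted by Benjamini-Hochberg over the 19101 genes tested. DESeq2 1.42.0, other scalings and filters, the 2 states alone, a block, a term for replicate 1 of the asynchronous and mitotic states, removal of feeder genes and leaving out each library were alternatives. Floors of 3 counts cover counting error only. The tests were checked on simulated data in which each gene had the same spread in every state. In the real libraries the spread differed between states, so the check does not cover that difference. Members, lists and alternatives were chosen with earlier results of these data known. Named are the 6 members, the members' close relatives, up to 4 called genes of each list by smallest p, the 3 genes most like each member, and genes beside a member. Sox11, Fgfr3, Wnt8a and single cell type markers were named outside this rule, after their values were seen, to complete a count or describe a sum. The result of 1 gene of these lists is not reported here. Sequences are from RefSeq.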

Additional observations from a re-analysis of the deposited data

How the results depend on the processing

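Of the alternatives for single members, 604 values kept direction and call, 33 gained a call, 23 lost one and 23, none called in either direction, changed sign. Fits of only the 2 states compared called 1 member and 3883 genes (mitotic against asynchronous), 2759 genes (early G1 against mitotic), 3 and 1493 (late against early G1), 3959 genes (late G1 against mitotic) and 1 and 5626 (early G1 against asynchronous). With both replicate 1 libraries of asynchronous and mitotic cells left out, 4 members and 11700 genes, 3 and 7918, 3 and 1518, 3 and 8525, and 13517 genes were called in the same order. A term for those libraries called 2 members and 5882 genes in early G1 against mitotic, 16 genes in late against early G1, and 2 and 6593 in late G1 against mitotic. Without a filter 2362, 58 and 3289 genes were called in these 3 comparisons, and DESeq2 called 1412 and 27 in the first 2 of them.

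Leaving out each library in turn gave 0 to 4 members and 4737 to 10382 genes in mitotic against asynchronous cells, 1 to 2 and 42 to 4518 in early G1 against mitotic, 0 and 0 to 25 in late against early G1, and 0 to 1 and 73 to 5546 in late G1 against mitotic. Against asynchronous cells it gave 1 to 4 members and 4186 to 11237 genes in early G1, and 1 to 4 and 5096 to 11489 in late G1. Log2 ranges that crossed 0 in mitotic against asynchronous cells were -0.12 to 0.14 (Pou3f1) and -0.44 to 0.33 (Sox3). In early G1 against mitotic they were -0.19 to 1.27 (Otx2) and -1.32 to 0.14 (Fgf5), and in late G1 against mitotic -0.59 to 0.88 (Otx2) and -0.040 to 0.20 (Zic2). In late against early G1 they were -0.35 to 0.17 (Sox3), -0.91 to 0.54 (Fgf5) and -0.077 to 0.091 (Pou3f1).

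Pou3f1 in mitotic against asynchronous cells was -0.035 with library totals, -0.038 with upper quartile scaling, -0.0090 with a stricter filter, -0.0013 with the replicate block, -0.033 without feeder genes and -0.16 without both replicate 1 libraries. Otx2 in early G1 against mitotic was -0.13 with the term and -0.19 without those libraries, and in late G1 against mitotic it was 0.0090 with library totals and 0.096 with the replicate block. The labels do not say whether same-numbered replicates are the same clone. Correlations of replicate differences over 12037 genes were 0.621 between asynchronous and mitotic cells and -0.365 to 0.0572 in the 5 other pairs of states. The numbers were therefore not taken as pairs over all 4 states. Asynchronous and mitotic cells did share replicate differences, which the main fit leaves out and the term for their replicate 1 fits. The replicate block called 7889, 803, 0, 1744, 8921 and 9430 genes in the 6 comparisons (mitotic against asynchronous, early G1 against mitotic, late against early G1, late G1 against mitotic, and early and late G1 against asynchronous), and Otx2 in early G1 against asynchronous cells (adjusted p = 0.0334) was the 1 member call it changed. Depth limits Fgf5 most, with 5 to 17 counts in each library outside the asynchronous state.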
